A study of Mus musculus with 12 samples.

Results

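Genes of the hypoxia response and of glycolysis were compared between pancreatic islets of NOD and C57BL/10 mice. The set was given as a list of 37 gene symbols: the alpha subunits of hypoxia-inducible factor (HIF) and their prolyl hydroxylases, glucose transporters, glycolytic enzymes and their regulators, and other genes known as HIF targets. All 37 matched a gene in the deposited table of 38561 Ensembl genes. Of these, 34 had enough counts to be tested, as did 15352 genes in all. Adm, Ak4 and Car9 did not, with at most 13, 15 and 9 counts in any library.

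RNA of isolated islets from male mice aged 11 weeks was sequenced in 12 libraries, 3 for each of 4 genotypes, and the series describes the replicates as separate mice. The B10 group had the C57BL/10SnSg;BR-H2k background and the NOD group the NOD/LtJ;BR-H2k background. The B10_insHEL and NOD_insHEL groups carried in addition the transgene Tg(ILK3mHEL)3Ccg (insHEL), in which an insulin promoter drives hen egg lysozyme. All 12 mice, controls included, had the MHC k haplotype and were Rag-/- (Ragtm1Mom), so that they lack the mature B and T cells that infiltrate islets of NOD mice. All were labelled normoglycemic. The islets were released with collagenase, enriched on a dextran density gradient and picked by hand, 20 to 137 per library. Both α-amanitin and actinomycin D, which block RNA synthesis, were present during isolation.

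HIF is a transcription factor made of an oxygen-regulated alpha subunit, HIF-1α (Hif1a) or HIF-2α (Epas1), and a constant beta subunit (Arnt). In well-oxygenated cells prolyl hydroxylases of the Egln family modify the alpha subunit, and the VHL ubiquitin ligase then leads it to degradation, so that HIF activity is set mainly at the level of the protein. When oxygen is low the dimer binds core motifs such as ACGTG and induces glucose uptake, glycolysis, mitophagy and matrix remodelling. In beta cells glycolysis also couples blood glucose to insulin secretion, through the mitochondria, and lactate formation is kept low.

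Library totals ranged from 2212062 counts in NOD_insHEL replicate 3 to 21138456 in B10 replicate 2. Summed levels of 8 beta cell markers were high in every library but lowest in B10, at 182600 to 203700 CPM (counts as a share of the TMM-scaled library total, the usual CPM unit), against 204600 to 272600 in B10_insHEL, 253000 to 260500 in NOD and 260700 to 292800 in NOD_insHEL. Ins1, Ins2 and Iapp made up most of each beta cell sum. Ins1, Ins2 and Mafa had lower means in B10 than in NOD, and Pdx1, Nkx6-1, Slc30a8, Iapp and G6pc2 higher ones. Summed levels of 10 acinar markers were 2569 to 3334 CPM in B10, against 77.8 to 163 in NOD and 22.4 to 49.1 in NOD_insHEL. In B10_insHEL they were 20.7 and 39.7 in replicates 1 and 3 but 1725 in replicate 2. Amy2a5 was the only one of the 10 at 0 in all 12 libraries. Endothelial markers summed to 894 to 979 CPM in B10, 1044 to 1115 in B10_insHEL, 1225 to 1730 in NOD and 936 to 1117 in NOD_insHEL. Genes induced by tissue dissociation, 10 in all and including immediate early genes, summed to 116 to 137 CPM in B10, 146 to 182 in B10_insHEL, 152 to 281 in NOD and 162 to 237 in NOD_insHEL. The numbers in the sample descriptions fall into separate ranges for the 3 B10 and the other 9 libraries. If they mark a batch, it cannot be told apart from the group in any comparison with B10.

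Per length of exon, levels of the glycolytic enzymes spanned more than 2 orders of magnitude. The highest were Aldoa, the muscle-type aldolase, with group means of 82.0 to 84.8 RPKM (CPM per kilobase of exon), and Pkm, pyruvate kinase, with 44.5 to 54.3 RPKM. Triosephosphate isomerase (Tpi1) had group means of 19.2 to 21.9 RPKM and glucose-6-phosphate isomerase (Gpi1) 9.88 to 12.5 RPKM. Hexokinase 2 (Hk2), the entry enzyme of many proliferating cells, was the lowest of the enzymes at 0.181 to 0.268 RPKM. Glyceraldehyde-3-phosphate dehydrogenase (Gapdh) had only 0.610 to 1.22 RPKM, phosphoglycerate kinase 1 (Pgk1) 1.74 to 3.11, phosphoglycerate mutase 1 (Pgam1) 1.56 to 2.25 and enolase 1 (Eno1) 1.03 to 2.89 RPKM. These 4 enzymes act in the same linear pathway as Tpi1 and Pkm. Exon length here is that of all annotated exons of a gene. For Gapdh it was 4133 bases, against 1420 in its longest protein-coding transcript. The ratio of these lengths differs between genes, so levels of different genes compare only roughly.

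Several of these genes have near-identical copies elsewhere in the genome, most of them processed pseudogenes. Copies were counted as gene models that match a member's longest protein-coding transcript at 95% identity or more over at least 200 bases. Gapdh had 78 such copies covering 88.0% of its transcript, and 70 of them, those in the deposited table, held 2199 counts together, against 522 for Gapdh itself. Copies covered 85.6% of the Eno1 transcript, 68.8% of Pgk1, 65.5% of Pkm, 50.2% of Gpi1, 43.1% of Pgam1 and 19.3% of Tpi1. Among the other members, copies covered 94.2% of Bnip3, 43.5% of Higd1a, 34.7% of Bnip3l and 15.4% of Ak4. How reads that fit several places were counted is not given in the sources used here, so levels and differences of these 11 genes are uncertain. The other 26 members had no such copy.

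**Figure D1:**
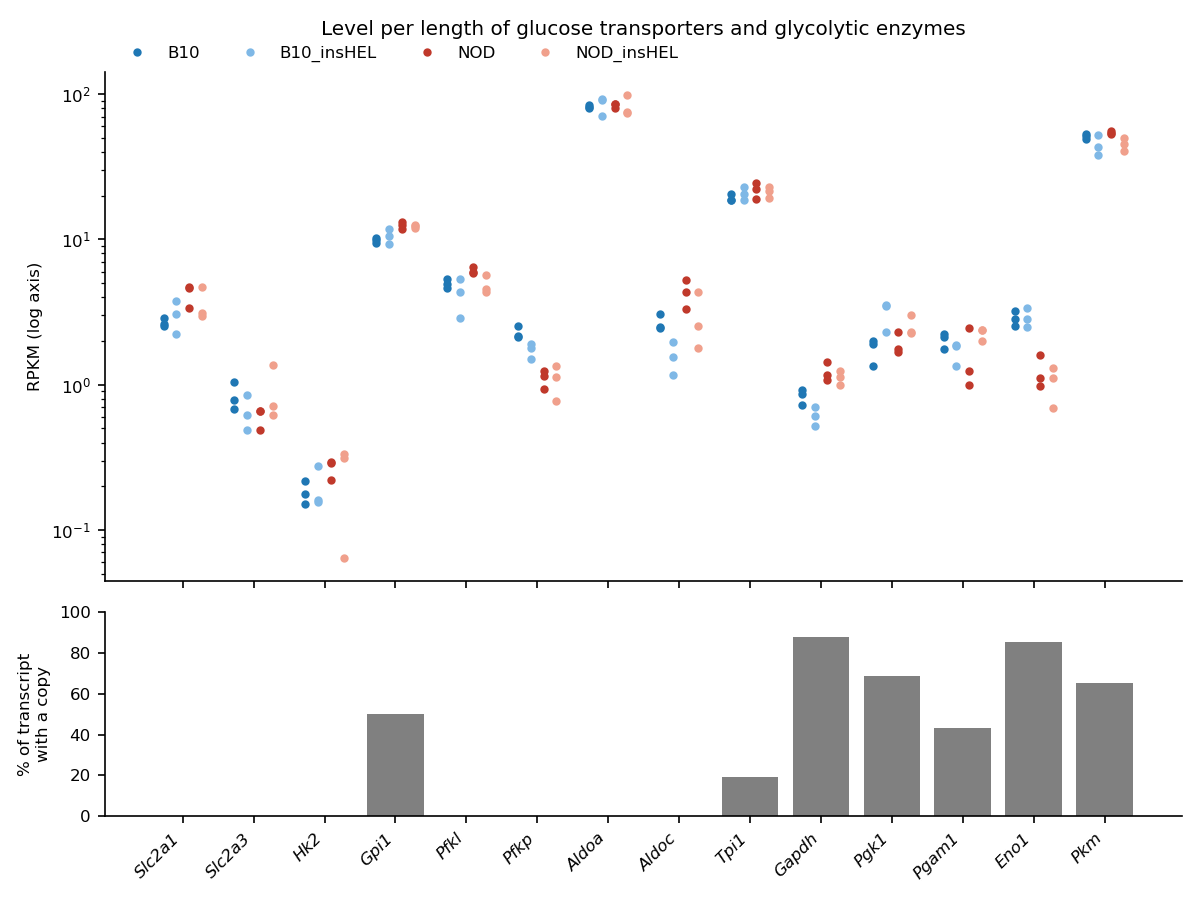
Level per length (RPKM, log axis) of 2 glucose transporters and 12 glycolytic enzymes in each library, 3 points per group (top), and the percentage of each transcript that a near-identical copy covers (bottom). Gapdh, Pgk1, Pgam1 and Eno1 lie near 1 to 3 RPKM. Of the genes without a copy, Aldoa lies near 80 RPKM, but Hk2, Slc2a3, Pfkp and Aldoc have mean levels between 0.221 and 2.85 RPKM. Pkm and Gpi1, which have copies, have mean levels of 48.8 and 11.3 RPKM.

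Averaged over the transgene (6 NOD-background against 6 B10-background libraries), 14 of the 34 tested members differed between strains in edgeR's quasi-likelihood test, 8 higher and 6 lower in NOD. Of all 15352 genes, 33.3% differed, 15.7% higher and 17.6% lower, so the members' share of 41.2% stands close to that of the transcriptome. The members had no common direction: their median log2 difference was 0.02, beside 0.01 over all genes tested. Stc2, Gapdh, Aldoc, Pfkfb4, P4ha2, Epas1, Slc2a1 and Gpi1 were higher, and Eno1, Pfkp, Vldlr, P4ha1, Hif1a and Pdk1 were lower. Among transgenic islets alone, whose description numbers share 1 range, Stc2, Gapdh and P4ha2 were higher and Eno1, Pfkp and Vldlr lower, 6 of 34 where 12.1% of all genes differed, 5.55% higher and 6.5% lower. Among islets without the transgene 13 members differed, 8 higher and 5 lower, where 28.4% of all genes did, 13.5% higher and 14.9% lower. Both of these sets of libraries are contained in the averaged difference. Without the transgene the call of Slc2a1 ended without B10 replicate 2 or 3 or NOD replicate 2 or 3, that of Gpi1 without B10 replicate 2 or 3 or NOD replicate 1 or 2, and that of Pdk1 without NOD replicate 3 or B10 replicate 3 (adjusted p 0.0511 to 0.0988).

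**Figure D2:**
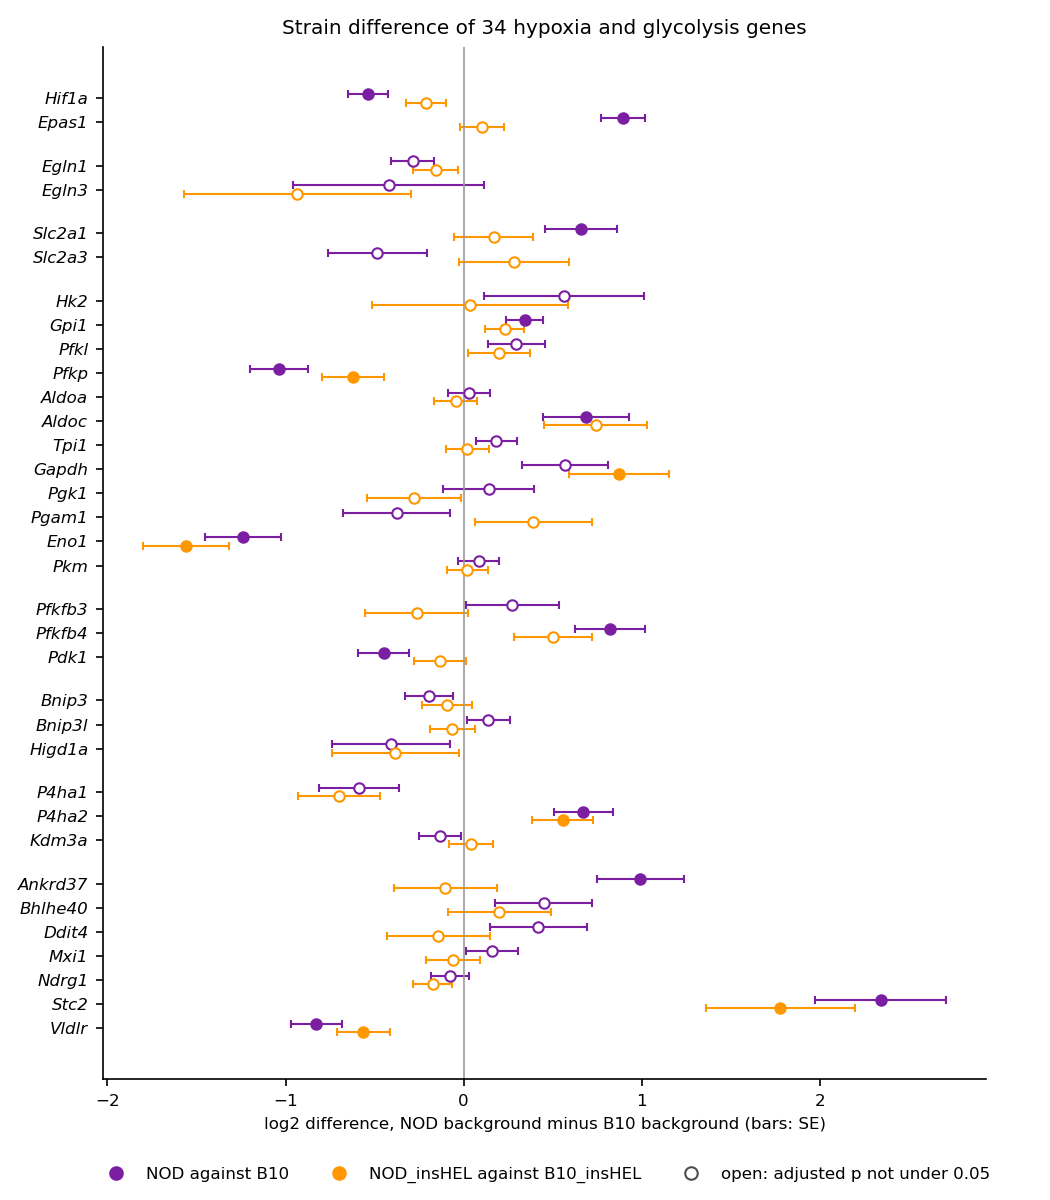
Log2 difference between NOD and B10 backgrounds (bars, SE) for the 34 tested members, grouped by role, without the transgene (purple) and with it (orange), where filled points passed an adjusted p of 0.05. Stc2 lies farthest to the right and Eno1 farthest to the left in both.

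Of the 14 members, 6 were also called in transgenic islets, and the promoters of the 4 among them that have no near-identical copy are shown so that the HIF core can be looked for beside their values. Each is the 250 bases before the most upstream RefSeq transcription start (GRCm38.p6), 5′ to 3′ on the gene's strand. The form of the core that was searched, ACGTG or its reverse complement CACGT, is in capitals. In the order Stc2, P4ha2, Pfkp and Vldlr they are chr11:31370062-31370311 on the minus strand, chr11:54100674-54100923 on the plus strand, chr13:6648772-6649021 on the minus strand and chr19:27216234-27216483 on the plus strand.
Stc2: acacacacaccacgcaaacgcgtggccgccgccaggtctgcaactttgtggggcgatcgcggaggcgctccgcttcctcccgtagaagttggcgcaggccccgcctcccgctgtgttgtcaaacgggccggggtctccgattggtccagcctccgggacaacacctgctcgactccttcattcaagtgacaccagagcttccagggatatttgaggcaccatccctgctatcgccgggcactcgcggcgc
P4ha2: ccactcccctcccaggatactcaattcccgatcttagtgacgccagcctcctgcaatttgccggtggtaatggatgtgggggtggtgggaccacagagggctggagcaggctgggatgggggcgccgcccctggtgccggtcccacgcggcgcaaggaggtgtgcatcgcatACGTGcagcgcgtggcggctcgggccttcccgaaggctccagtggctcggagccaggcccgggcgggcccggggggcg
Pfkp: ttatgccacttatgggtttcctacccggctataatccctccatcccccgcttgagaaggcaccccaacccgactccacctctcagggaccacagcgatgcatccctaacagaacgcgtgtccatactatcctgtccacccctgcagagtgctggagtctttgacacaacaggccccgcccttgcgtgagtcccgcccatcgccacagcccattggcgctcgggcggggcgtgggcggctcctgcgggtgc
Vldlr: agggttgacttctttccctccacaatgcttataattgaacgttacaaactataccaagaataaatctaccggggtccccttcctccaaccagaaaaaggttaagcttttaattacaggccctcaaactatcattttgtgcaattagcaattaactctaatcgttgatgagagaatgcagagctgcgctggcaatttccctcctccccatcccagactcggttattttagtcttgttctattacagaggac
P4ha2 holds 1 such match here, 78 bases before its start, and another begins 10 bases after the start. The other 3 printed stretches hold no ACGTG or CACGT. In windows of 300 bases, which add 50 bases after the start, ACGTG or CACGT was found for 21 of the 32 members with a window (65.6%), against 21.8% of 27025 genes in the RefSeq table. Some genes have several windows, and counted per window the shares were 50% for the members and 19.6% for all. The palindrome CACGTG, which contains ACGTG on both strands, was in 8.33% of the members' windows and in 7.15% of all windows. Of the 13 strain-called members with a window 6 held ACGTG or CACGT (Slc2a1, Aldoc, Gapdh, P4ha2, Hif1a and P4ha1), and of the 16 not called 13 did. A match describes these letters only. The list includes genes chosen as known HIF targets, so the members' higher share is not a result of these data. Other forms of the HIF core, such as GCGTG, and cores outside the window were not searched.

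The alpha subunits moved in opposite directions. Hif1a (ENSMUSG00000021109, chr12:73901375-73947530) had 103.6, 105 and 131 CPM in the 3 B10 libraries, 101.6, 110.3 and 93.1 in B10_insHEL, 81.7, 76.4 and 75.5 in NOD and 90.6, 91.0 and 80.3 in NOD_insHEL. All 6 NOD-background libraries lay under all 6 B10-background libraries (log2 difference -0.37, SE 0.08, adjusted p = 0.00112), and the gap was -0.54 without the transgene (adjusted p = 0.00126) and -0.21 with it (adjusted p = 0.249). Groups overlapped in neither. In the 6 against 6 libraries 3 members were lower and 3 higher without overlap, where 6.4% and 4.92% of all genes were, and without the transgene 7 were lower and 13 higher, where 23.8% of all genes were in each direction. Between the transgenic groups 4 were lower and 5 higher without overlap, where 14.2% and 12.8% of all genes were.

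Epas1 (ENSMUSG00000024140, chr17:86753700-86833410), the HIF alpha gene typical of endothelial cells, had 112, 108 and 98.8 CPM in the 3 B10 libraries, 127, 144 and 119 in B10_insHEL, 158, 224 and 209.7 in NOD and 136, 151 and 131 in NOD_insHEL. NOD islets without the transgene were thus above every other library, while the transgenic groups overlapped. Its averaged difference was 0.50 (SE 0.09, adjusted p = 0.000183), made up of 0.90 without the transgene (adjusted p = 2.15e-05) and 0.10 with it (adjusted p = 0.661). The summed endothelial level was likewise highest in the 3 NOD libraries: 7 of 8 of its markers were higher in NOD than in B10 (none lower), and 0 were higher and 2 lower in NOD_insHEL than in B10_insHEL. In bulk tissue, more cells of a type and more RNA per cell cannot be told apart, and the part of endothelial cells in the Epas1 difference was not tested.

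The prolyl hydroxylase genes did not pass. Egln1, which encodes the main oxygen sensor PHD2, measured 58.9 ± 3.56 (B10) and 48.1 ± 7.98 CPM (NOD; mean ± SD, n = 3; averaged -0.22, adjusted p = 0.0588). Egln3, whose transcript is a classical HIF target, had at most 18 counts in any library, and its averaged log2 difference of -0.68 carried an SE of 0.42 (adjusted p = 0.224).

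Of the glucose transporters, Slc2a1, which encodes the ubiquitous GLUT1, was higher in NOD at 9.35 ± 0.574 (B10), 10.6 ± 2.74 (B10_insHEL), 14.8 ± 2.54 (NOD) and 12.6 ± 3.33 CPM (NOD_insHEL), each the mean ± SD of 3 libraries (log2 difference 0.41, SE 0.15, adjusted p = 0.0392 for 6 against 6). The transgenic groups overlapped (0.17, adjusted p = 0.686). The averaged call ended in 8 of 12 fits that left out a library (B10 replicate 1, 2 or 3, B10_insHEL replicate 1 or 2, NOD replicate 2 or 3, or NOD_insHEL replicate 3), with adjusted p up to 0.102. Slc2a3, the neuronal GLUT3, did not pass (averaged -0.10, adjusted p = 0.745).

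Of the 12 glycolytic enzymes, 3 were higher in NOD (Gpi1, Aldoc and Gapdh), 2 were lower (Pfkp and Eno1) and 7 did not pass, a share of 41.7% called beside 33.3% of all genes. Their median log2 difference was 0.08. Their summed level ranged from 581 to 761 CPM over the 12 libraries, with means of 712 ± 23.9 (B10), 680 ± 89.8 (B10_insHEL), 747 ± 6.38 (NOD) and 682 ± 70.5 CPM (NOD_insHEL; SD, n = 3). Aldoa and Pkm made up most of it and did not pass, with averaged log2 differences of -0.01 (SE 0.09, adjusted p = 0.957) and 0.05 (SE 0.08, adjusted p = 0.659). Hk2, Pfkl, Tpi1, Pgk1 and Pgam1 had averaged differences between -0.07 (Pgk1) and 0.30 (Hk2), with adjusted p from 0.113 to 0.982.

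Pfkp (ENSMUSG00000021196, chr13:6579768-6648777) encodes the platelet isoform of phosphofructokinase, the enzyme of the committed step. It had 33.8, 28.7 and 28.97 CPM in the 3 B10 libraries, 20.2, 24.0 and 25.7 in B10_insHEL, 12.6, 16.6 and 15.4 in NOD and 15.1, 17.9 and 10.3 in NOD_insHEL. Every NOD-background library was lower than every B10-background library (log2 difference -0.83, SE 0.12, adjusted p = 1.78e-05) and the same held among transgenic islets (-0.62, adjusted p = 0.0212). The transgenic call ended without B10_insHEL replicate 3 or NOD_insHEL replicate 1 or 3 (adjusted p 0.0730 to 0.0791). The liver isoform Pfkl measured 33.0 ± 2.23 (B10) and 40.6 ± 2.06 CPM (NOD; SD, n = 3; averaged 0.25, adjusted p = 0.113).

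Aldoc (ENSMUSG00000017390, chr11:78322968-78327781), the brain-type aldolase, had 8.13, 7.98 and 10.0 CPM in the 3 B10 libraries, 6.45, 3.83 and 5.06 in B10_insHEL, 17.2, 10.8 and 14.1 in NOD and 8.24, 5.80 and 14.1 in NOD_insHEL. NOD lay above B10 without overlap (log2 difference 0.69, SE 0.24, adjusted p = 0.0387), whereas NOD_insHEL and B10_insHEL overlapped (0.74, adjusted p = 0.102). The averaged difference was 0.71 (SE 0.19, adjusted p = 0.00600). Without the transgene its call ended when B10 replicate 1, 2 or 3, NOD replicate 1 or 3 or NOD_insHEL replicate 1 was left out (adjusted p 0.0501 to 0.197).

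Eno1 (ENSMUSG00000063524, chr4:150236721-150248879), the ubiquitous enolase, was the member with the lowest averaged difference. It had 17.2, 15.3 and 13.6 CPM in the 3 B10 libraries, 15.3, 13.4 and 18.1 in B10_insHEL, 6.03, 5.31 and 8.64 in NOD and 5.94, 3.69 and 7.04 in NOD_insHEL. The lowest B10-background value was above the highest NOD-background value (log2 difference -1.40, SE 0.16, adjusted p = 1.01e-06), a 2.64-fold difference that was -1.56 on the log2 scale in transgenic islets (SE 0.24, adjusted p = 0.000112). Leaving out any library moved the averaged value only between -1.50 and -1.28. The processed pseudogene Gm4735 had 27 to 60 counts in each B10-background library and 0 in all 6 NOD-background libraries. Eno1b, a protein-coding copy, was higher in NOD (averaged log2 difference 1.98, adjusted p = 0.00196), with 0.174 to 1.07 CPM in the B10-background and 0.792 to 5.17 in the NOD-background libraries. Eno1 and its copies summed to 16.1 to 21.9 CPM on the B10 background and to 4.49 to 12.2 CPM on the NOD background, still without overlap.

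Gapdh (ENSMUSG00000057666, chr6:125161715-125166467), often used as a reference gene, had 3.80, 2.97 and 3.54 CPM in the 3 B10 libraries, 2.15, 2.52 and 2.89 in B10_insHEL, 4.79, 5.89 and 4.46 in NOD and 4.12, 5.15 and 4.70 in NOD_insHEL. All NOD-background values were higher than all B10-background values (log2 difference 0.72, SE 0.18, adjusted p = 0.00494). Without the transgene Gapdh did not pass. In transgenic islets it passed narrowly (log2 difference 0.87, SE 0.28, adjusted p = 0.0455), and this call ended whichever of the 12 libraries was left out (adjusted p 0.0525 to 0.166). The pseudogene Gm13394 had 39 to 233 counts in each NOD-background library and at most 1 in any B10-background library, and so held more counts than Gapdh itself in all 6 NOD-background libraries. A further pseudogene, Gm5069, was also higher in NOD (averaged log2 difference 0.62, adjusted p = 0.0125), but did not pass in transgenic islets (0.21, adjusted p = 0.688). Gapdh and its copies summed to 9.05 to 14.2 CPM on the B10 background and to 28.5 to 36 CPM on the NOD background. Whether reads of Eno1 and Gapdh were assigned to different copies in the 2 strains was not tested.

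Gpi1 (ENSMUSG00000036427, chr7:34201330-34230336), which interconverts glucose-6-phosphate and fructose-6-phosphate, measured 63.7 ± 2.88 (B10), 67.8 ± 8.07 (B10_insHEL), 80.8 ± 4.68 (NOD) and 79.3 ± 1.81 CPM (NOD_insHEL), each the mean ± SD of 3 libraries (log2 difference 0.29, SE 0.08, adjusted p = 0.00575 for 6 against 6). Within transgenic islets it did not pass (0.23, adjusted p = 0.179). Its processed pseudogene Gm1840, with 6729 counts in all against 9809, differed by 0.22 (adjusted p = 0.0328).

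**Figure D3:**
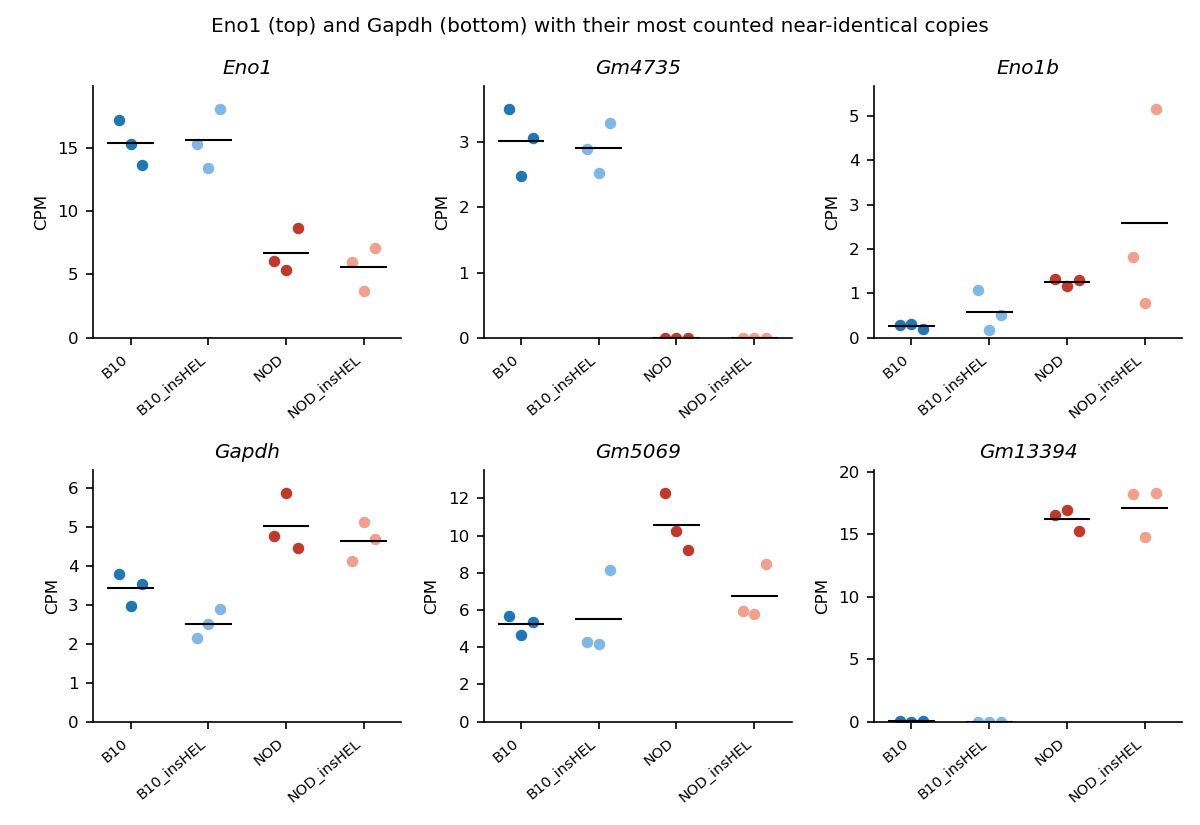
CPM in each library (points) and group means (lines) of Eno1, Gapdh and their most counted near-identical copies. Gm4735 is at 0 in all 6 NOD-background libraries, and Gm13394 has at most 1 count in any B10-background library.

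Among the regulators of glycolysis, Pfkfb4 (ENSMUSG00000025648, chr9:108991778-109032228), which makes and degrades the phosphofructokinase activator fructose-2,6-bisphosphate, had 8.25, 6.44 and 7.43 CPM in the 3 B10 libraries, 9.24, 6.001 and 6.19 in B10_insHEL, 11.7, 14.1 and 13.3 in NOD and 9.78, 8.97 and 12.7 in NOD_insHEL. NOD was above B10 without overlap (log2 difference 0.82, SE 0.20, adjusted p = 0.00388), the transgenic groups overlapped (0.50, adjusted p = 0.149) and the average over both was 0.66 (SE 0.15, adjusted p = 0.00161). Its paralog Pfkfb3, the form typical of dividing cells, did not pass (averaged 0.00, adjusted p = 0.989). Pdk1, the pyruvate dehydrogenase kinase that keeps pyruvate out of the mitochondria under hypoxia, was lower in NOD (averaged log2 difference -0.29, SE 0.10, adjusted p = 0.0317), a call that ended without B10 replicate 3, B10_insHEL replicate 1, NOD replicate 3 or NOD_insHEL replicate 1 or 2 (adjusted p 0.0619 to 0.103).

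The mitochondrial targets Bnip3 and Bnip3l, which mark mitochondria for autophagy, and Higd1a, a respiratory chain protein, did not pass. Their averaged log2 differences were -0.14 (SE 0.10), 0.04 (SE 0.09) and -0.40 (SE 0.24), with adjusted p of 0.270, 0.767 and 0.225. The Bnip3 pseudogene Gm16439 was lower in NOD (averaged log2 difference -0.71, adjusted p = 0.00182).

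The collagen prolyl 4-hydroxylase subunits, both known HIF targets, moved in opposite directions. P4ha2 (ENSMUSG00000018906, chr11:54100095-54131665), whose promoter is printed above, had 27.7, 28.6 and 20.3 CPM in the 3 B10 libraries, 23.0, 38.8 and 31.1 in B10_insHEL, 46.0, 39.5 and 36.6 in NOD and 42.7, 44.7 and 51.2 in NOD_insHEL. All 6 NOD-background values were higher than those of the 3 B10 libraries and of B10_insHEL replicates 1 and 3, while B10_insHEL replicate 2 overlapped (averaged log2 difference 0.61, SE 0.12, adjusted p = 0.000574, and 0.56, adjusted p = 0.0395 in transgenic islets). The transgenic call ended without B10_insHEL replicate 1 or 3, NOD replicate 2 or NOD_insHEL replicate 1, 2 or 3 (adjusted p 0.0527 to 0.139).

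P4ha1 (ENSMUSG00000019916, chr10:59323296-59373304), the other catalytic subunit, had 88.1, 101.1 and 69.6 CPM in the 3 B10 libraries, 79.9, 158 and 129.7 in B10_insHEL, 67.5, 56.8 and 47.2 in NOD and 77.5, 82.2 and 64.3 in NOD_insHEL. Its highest value was in B10_insHEL replicate 2, the library of that group with high acinar markers. The 3 B10 libraries, whose acinar markers were higher still, had 69.6 to 101.1 CPM of P4ha1. The part of acinar cells in these values was not tested. The strain groups overlapped (averaged log2 difference -0.64, SE 0.16, adjusted p = 0.00842). Neither strain comparison passed alone (adjusted p = 0.0693 with and 0.0686 without the transgene). The histone demethylase gene Kdm3a did not pass (averaged -0.05, adjusted p = 0.714).

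Stc2 (ENSMUSG00000020303, chr11:31357307-31370074), which encodes the secreted glycoprotein stanniocalcin 2, was the member with the highest strain difference. It had 1.23, 0.586 and 0.954 CPM in the 3 B10 libraries, 1.18, 0.696 and 1.24 in B10_insHEL, 6.19, 3.997 and 3.60 in NOD and 3.45, 4.49 and 1.88 in NOD_insHEL. Every NOD-background library was above every B10-background library, with 4 to 75 counts against 8 to 21, a 4.17-fold difference (log2 difference 2.06, SE 0.28, adjusted p = 8.94e-06). It passed with the transgene (1.78, adjusted p = 0.00663) and without it (2.34, adjusted p = 9.35e-05), and kept its averaged call when any library was left out (adjusted p up to 7.81e-05).

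Vldlr (ENSMUSG00000024924, chr19:27216484-27254231), the very low density lipoprotein receptor, had 95.4, 116 and 111 CPM in the 3 B10 libraries, 56.5, 76.3 and 93.2 in B10_insHEL, 68.3, 54.1 and 58.9 in NOD and 51.5, 48.3 and 54.0 in NOD_insHEL. NOD lay under B10 and NOD_insHEL under B10_insHEL, in each case without overlap (-0.83, adjusted p = 0.000272 and -0.56, adjusted p = 0.0163), with an averaged difference of -0.70 (SE 0.10, adjusted p = 3.38e-05). The transgenic call ended without B10_insHEL replicate 3 or NOD_insHEL replicate 1 or 2 (adjusted p 0.0575 to 0.0961).

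Ankrd37 (ENSMUSG00000050914, chr8:45996902-46005707), a short ankyrin-repeat gene used as a HIF reporter, had 6.96, 4.42 and 6.61 CPM in the 3 B10 libraries, 6.23, 4.70 and 6.50 in B10_insHEL, 12.1, 9.16 and 14.7 in NOD and 6.90, 3.56 and 5.63 in NOD_insHEL. The 3 NOD libraries stood above the other 9. NOD differed from B10 by 0.99 (SE 0.25, adjusted p = 0.00504), while the difference in transgenic islets was -0.10 (adjusted p = 0.866) and the averaged one 0.45 (adjusted p = 0.0754). Bhlhe40, Ddit4, Mxi1 and Ndrg1, which encode regulators of transcription, mTOR signalling and stress, had averaged differences between -0.13 (Ndrg1) and 0.32 (Bhlhe40) and did not pass (adjusted p 0.214 to 0.757). Of the members not tested, Adm, which encodes the vasodilator adrenomedullin, had 6 to 13 counts in each NOD library, 3 to 11 in each B10 library and 0 to 2 in each transgenic library.

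**Figure D4:**
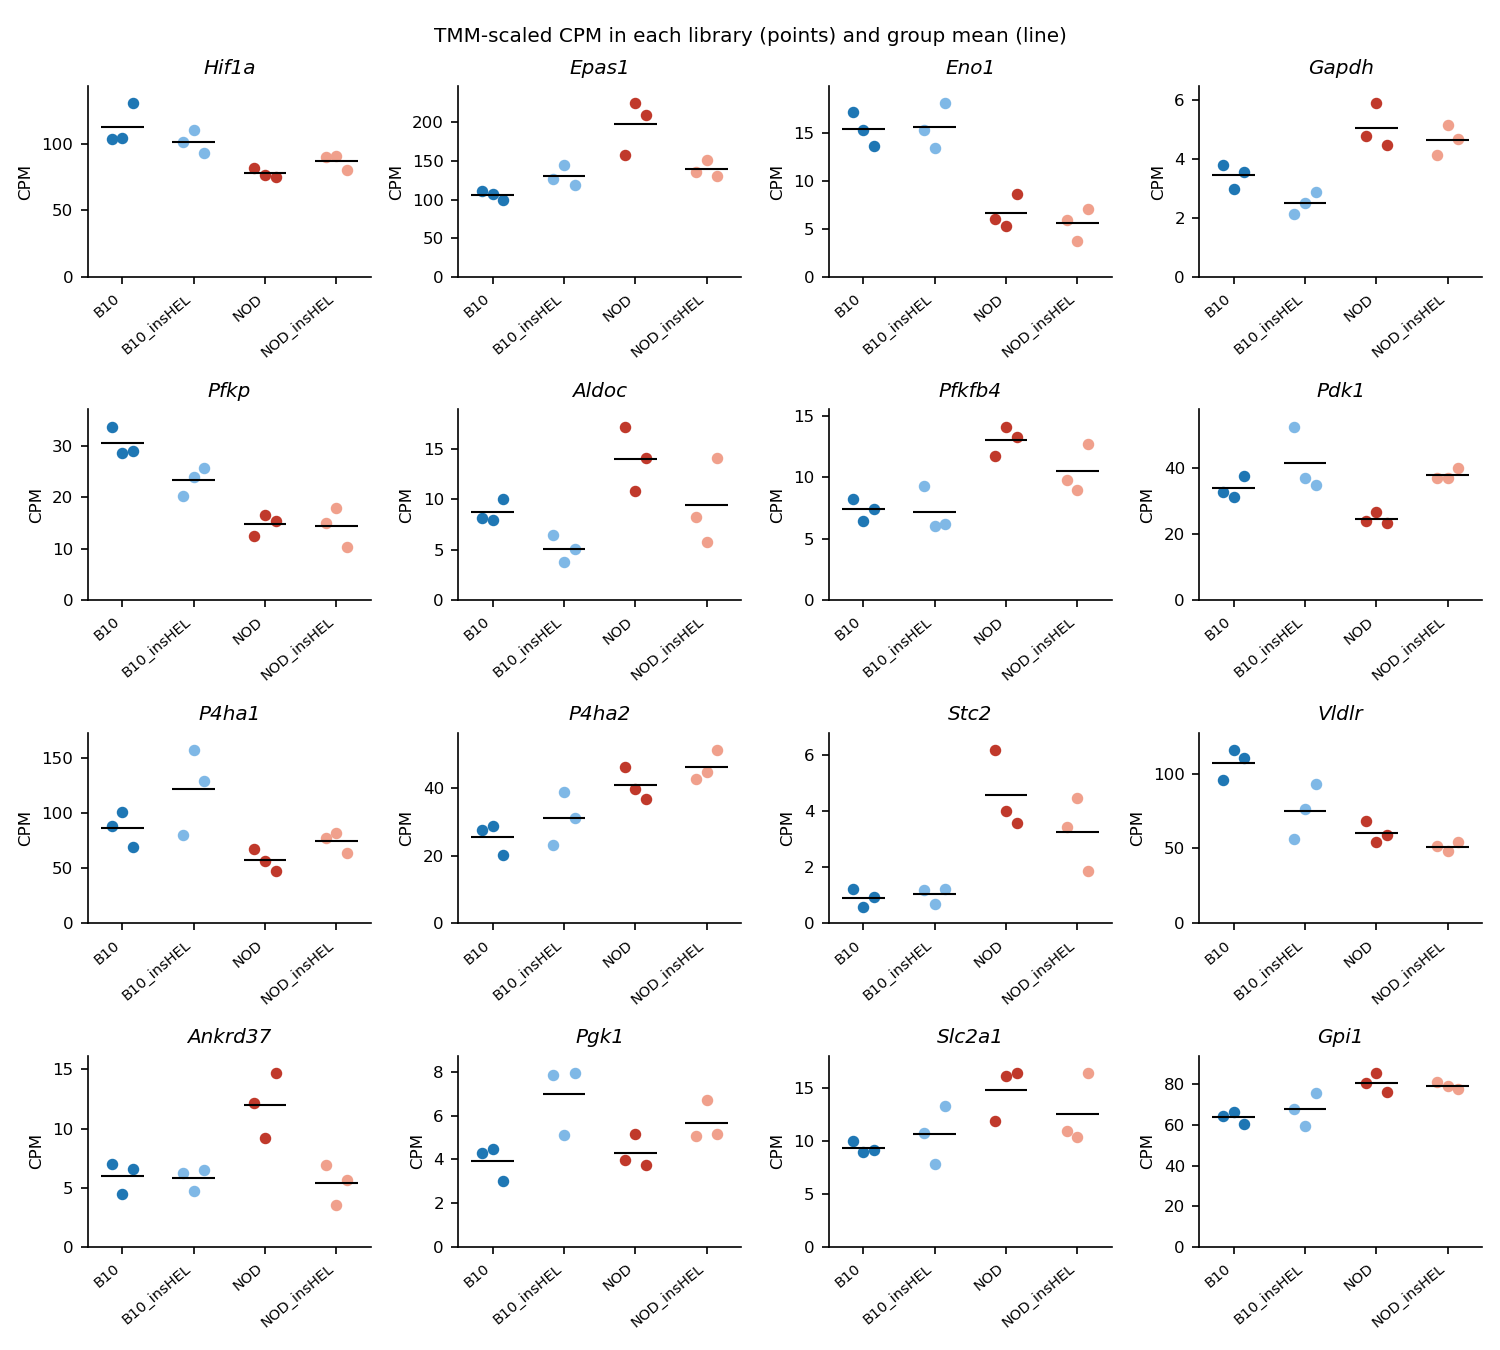
CPM in each library (points) and group means (lines) of 16 members that passed in at least 1 comparison. Eno1, Pfkp, Gapdh, Stc2, Hif1a and Gpi1 separate all NOD-background from all B10-background libraries, whereas Ankrd37 and Epas1 are high in the 3 NOD libraries only.

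Marker levels moved with the strain difference as well. All 8 acinar markers that were tested were lower in NOD on average. Of the beta cell markers 3 of 8 were higher and 3 lower, of the delta cell markers 3 of 3 were higher, and of the dissociation genes 5 of 10 were higher and 0 lower, the last also without the transgene. Endothelial markers had 6 of 8 higher and 1 lower, and stellate cell and fibroblast markers 3 of 9 higher and 0 lower. Erythroid markers had 3 of 5 higher and 1 lower, duct markers 2 of 6 and 1, and alpha cell markers 0 of 6 and 1. Of 8 macrophage markers none passed. Summed alpha cell markers ran from 6032 to 32630 CPM within B10 and from 7423 to 22860 within NOD. The part of these cells and of dissociation in the members' differences was not tested. An acinar score was tried as a covariate, but it cannot separate acinar content from strain. Every B10 library scored at least 6.32, while no NOD library scored above 3.05. Within a group the score differed widely only in B10_insHEL, through replicate 2 (5.868, beside 1.615 for replicate 1 and 0.9432 for replicate 3). Which calls ended or stayed with this covariate is therefore no measure of the acinar part. Once an acinar score entered the fit as a covariate, the averaged calls of Hif1a, Slc2a1, Gpi1, Aldoc, Gapdh, Pfkfb4, Pdk1 and P4ha1 ended (adjusted p 0.107 to 0.693), while those of Epas1, Pfkp, Eno1, P4ha2, Stc2 and Vldlr did not. Of the ended calls, the log2 difference was 0.71 for Gapdh, -0.36 for Pdk1, 0.56 for Pfkfb4 and -0.27 for Hif1a, and it moved further for Slc2a1 (0.15), Gpi1 (0.14), Aldoc (0.45) and P4ha1 (-0.42). Without the transgene the Stc2 difference then was 1.47 (adjusted p = 0.207). With all libraries thinned to the depth of the shallowest, Epas1, P4ha2 and Vldlr were the members still called. Pfkp then had a log2 difference of -0.78 (adjusted p = 0.0991) and Eno1 of -0.79 (adjusted p = 0.436, against 1.23e-17 to 0.436 over all 22 of its alternatives), and Stc2 had too few counts to be tested.

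Genes of the same pathways that are not on the list had calls in both directions, to be read beside the 15.7% of all genes that were higher and the 17.6% that were lower. Unlike the members, none of these pathway genes was searched for near-identical copies or followed through the alternatives. Of 13 tested genes listed as HIF machinery, 2 were higher in NOD (Ldb1, 0.33, and Elob, 0.32) and 2 lower: Hif1an, the asparaginyl hydroxylase FIH (log2 difference -0.36, SE 0.08, adjusted p = 0.00107), and the beta subunit Arnt (log2 difference -0.24, SE 0.08, adjusted p = 0.0255). Ldb1 encodes a LIM domain-binding cofactor and is not an established part of that machinery. Vhl did not pass (0.02, adjusted p = 0.879). Of 25 other HIF targets 5 were higher and 6 lower, with Tmem45a (2.23, adjusted p = 0.000239) and the hypoxic cytochrome c oxidase subunit Cox4i2 (1.20, adjusted p = 0.00122) at the top. The lowest were Ppp1r3c, a glycogen-targeting phosphatase subunit (-1.94, adjusted p = 0.000130), and the mTORC1 regulator Rragd (-1.01, adjusted p = 6.90e-08). Vegfa, the angiogenic factor most often read as a HIF target, did not pass (log2 difference -0.02, SE 0.08, adjusted p = 0.843).

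Of 13 other tested glycolytic isozymes 4 were higher and 2 lower, where 33.3% of all genes differed. The neuronal and endocrine enolase Eno2 was higher (log2 difference 0.94, SE 0.10, adjusted p = 3.56e-07, and 0.96, adjusted p = 8.88e-05 in transgenic islets), opposite to Eno1. The beta cell glucose transporter Slc2a2 (GLUT2) was higher on average (log2 difference 0.54, SE 0.11, adjusted p = 0.000859), but did not pass without the transgene, where it had 747 ± 83.7 (B10) and 780.0 ± 26.3 CPM (NOD; SD, n = 3; 0.06, adjusted p = 0.796). In transgenic islets it had 422 ± 126 (B10_insHEL) and 859 ± 25.4 CPM (NOD_insHEL; 1.03, adjusted p = 0.000150), and it was lower with insHEL in B10 (-0.83, adjusted p = 0.00366). Its interaction of strain and transgene did not pass (0.97, adjusted p = 0.132). Tigar, a fructose-2,6-bisphosphatase, and the muscle phosphofructokinase Pfkm were lower (-0.44, adjusted p = 0.00315 and -0.23, adjusted p = 0.0434). Of 19 genes of pyruvate and lactate fate 2 were higher, Ldha, the lactate dehydrogenase subunit that beta cells normally repress (log2 difference 0.40, SE 0.14, adjusted p = 0.0286), and malic enzyme 1 (Me1, 0.40, adjusted p = 0.00345). The 4 lower ones were led by Me3, the mitochondrial malic enzyme (log2 difference -1.39, SE 0.18, adjusted p = 4.66e-06), and Pdha1, the pyruvate dehydrogenase E1 subunit (log2 difference -0.44, SE 0.07, adjusted p = 4.85e-05). The median of the isozyme list was 0.33 and that of the pyruvate and lactate list -0.15.

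Few members differed between islets with and without the transgene, 5.88% of those tested in B10 and 8.82% in NOD, close to the shares of all genes. In B10 islets 2 of 34 differed with insHEL, Pgk1 higher and Vldlr lower, where 6.85% of all genes did, 4.09% higher and 2.76% lower. Pgk1 (ENSMUSG00000062070, chrX:106187100-106203699), which makes ATP from 1,3-bisphosphoglycerate, had 4.27, 4.46 and 3.00 CPM in the 3 B10 libraries, 7.84, 5.13 and 7.94 in B10_insHEL, 3.96, 5.16 and 3.74 in NOD and 5.08, 6.73 and 5.17 in NOD_insHEL. B10_insHEL was above B10 without overlap (log2 difference 0.82, SE 0.25, adjusted p = 0.0491), but the call ended in 11 of 12 fits that left out a library, all but that without B10_insHEL replicate 2 (adjusted p 0.0508 to 0.208 where it ended). Vldlr was lower with the transgene in B10 (log2 difference -0.51, SE 0.14, adjusted p = 0.0349), again without overlap, and lost this call without B10 replicate 2, B10 replicate 3 or B10_insHEL replicate 1 (adjusted p 0.114 to 0.127). In this comparison 2 members were higher and 4 lower without overlap, where 13.1% and 13.5% of all genes were.

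In NOD islets 3 of 34 members differed with insHEL, where 7.06% of all genes did, 3.88% higher and 3.18% lower. Pdk1 (ENSMUSG00000006494, chr2:71873224-71903858) had 32.9, 31.1 and 37.5 CPM in the 3 B10 libraries, 52.5, 37.0 and 35.0 in B10_insHEL, 24.0, 26.7 and 23.3 in NOD and 37.1, 36.9 and 39.9 in NOD_insHEL. It was higher with the transgene in NOD without overlap (log2 difference 0.61, SE 0.15, adjusted p = 0.0189). Epas1 and Ankrd37 were lower in NOD_insHEL than in NOD (log2 difference -0.50, SE 0.12, adjusted p = 0.0211 for Epas1, and log2 difference -1.14, SE 0.28, adjusted p = 0.0185 for Ankrd37), neither with overlap. Without overlap 1 member was higher and 5 lower in this comparison, where 13.3% of all genes were in each direction. In the same comparison 5 of 8 endothelial markers were lower and 0 higher. Each call rested on few libraries. That of Epas1 ended without NOD replicate 2 or 3 or NOD_insHEL replicate 1 or 2 (adjusted p 0.0593 to 0.115), and that of Pdk1 without NOD replicate 3 or NOD_insHEL replicate 1 or 2 (0.0703 to 0.0796). That of Ankrd37 ended without NOD replicate 3 or NOD_insHEL replicate 2 (0.0774 to 0.134).

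**Figure D5:**
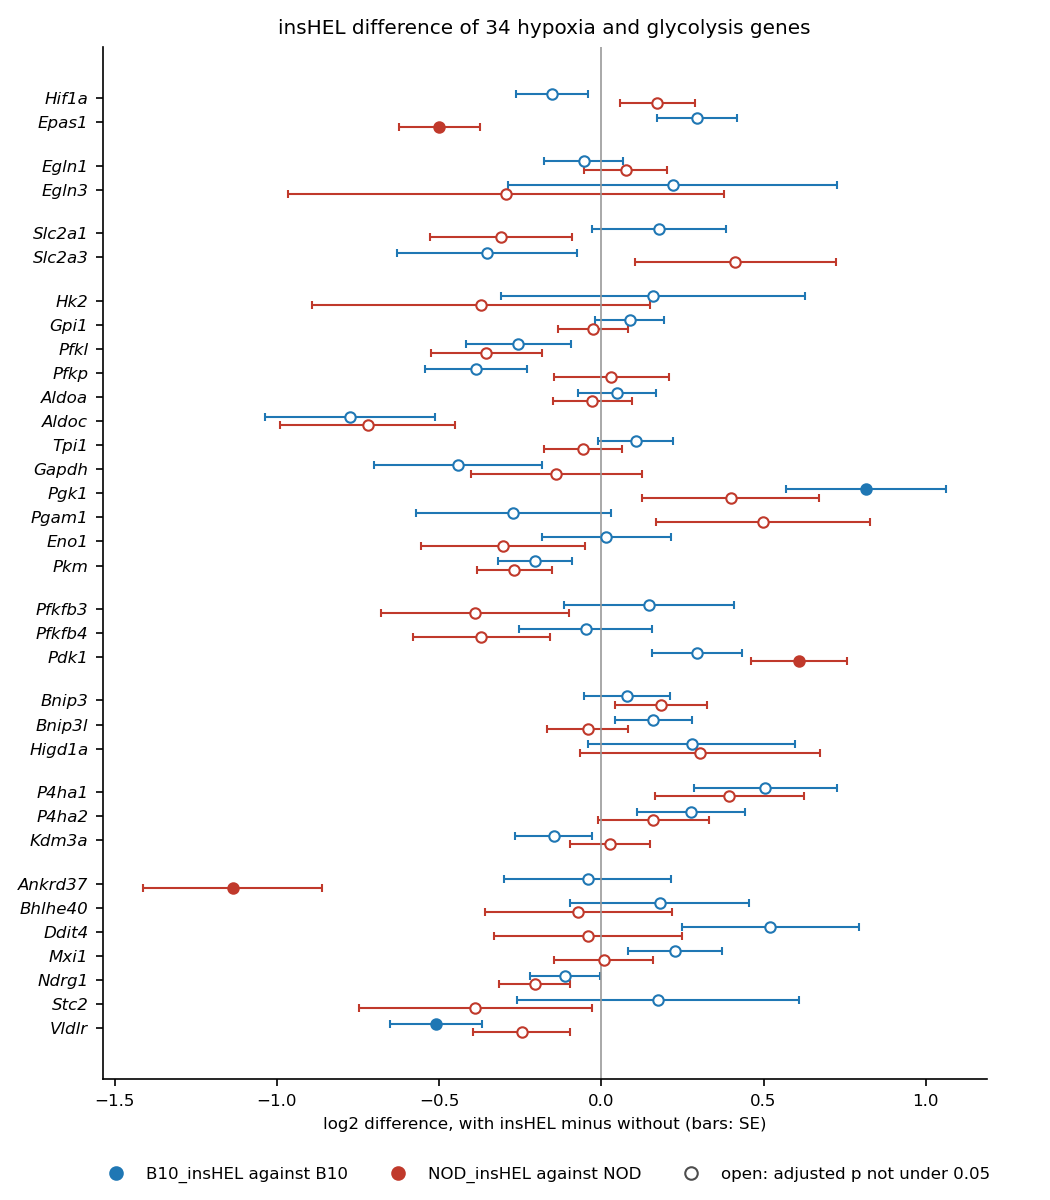
Log2 difference between islets with and without insHEL (bars, SE) for the 34 tested members in B10 (blue) and NOD (red), where filled points passed an adjusted p of 0.05. Pgk1 and Vldlr passed in B10, and Pdk1, Epas1 and Ankrd37 in NOD.

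Whether the transgene difference depended on the strain was tested as an interaction. No member passed in edgeR's quasi-likelihood test (0 of 34, where 0.0586% of all genes passed, 0.0456% above and 0.013% under 0), and 2 had an unadjusted p under 0.05, Epas1 and Ankrd37. Epas1 had an interaction of -0.79 (SE 0.18, adjusted p = 0.103), from log2 differences with insHEL of 0.30 in B10 (adjusted p = 0.156) and -0.50 in NOD. It passed with DESeq2's Wald test (adjusted p = 0.0152), without a filter on low counts (0.00441), with an acinar covariate (0.0339) and without B10_insHEL replicate 2 (0.0491) or NOD replicate 1 (0.0249), within a range of 0.00441 to 0.381 over its alternatives. Of the 8 endothelial markers 1 passed this test, in the same direction. Ankrd37 had an interaction of -1.09 (SE 0.38, adjusted p = 0.265). The other 32 members lay between -0.56 and 0.77. No strain-dependent transgene effect was detected for them at this replication, and these values alone do not bound its size.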

How the data were processed

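Polyadenylated RNA of isolated islets was sequenced from stranded TruSeq mRNA libraries, 12 in all. The values used are raw read counts per Ensembl gene, as deposited by the authors. Per the submitters' processing notes, cutadapt, TopHat2 2.0.8b, HTSeq and DESeq were used with GRCm38. Which annotation release was counted, with which setting for strand and for ambiguous reads, is not given in the sources used here. Symbols and positions were taken from GENCODE vM21, which named 36723 of the 38561 genes and all 37 members.

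Counts were tested in R 4.3.3 with edgeR 4.0.16: filterByExpr over the 4 groups, TMM scaling, 1 fit with 4 group means and the robust quasi-likelihood test, with Benjamini-Hochberg adjustment over all 15352 genes and a threshold of 0.05. The common biological coefficient of variation was 0.142. CPM use the TMM-scaled totals, and RPKM divide them by exon length. A count of 0 allows up to 3 counts, 0.142 to 1.36 CPM depending on the library, for counting error only. The test was first tried on simulated counts. Near-identical copies were searched with blastn 2.17.0, and promoters come from RefSeq's GRCm38.p6 table.

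Alternatives were DESeq2 1.42.0, other scalings and filters, fits on the compared groups alone, a replicate block, acinar score or islet number as a covariate, thinning, and leaving out libraries. The labels name 3 mice per genotype, and no 2 replicates agreed within sampling noise.

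The members and lists were chosen with earlier results of these data known. Values in every library are given for members called in the averaged strain difference with a log2 size of at least 0.5 or called for the transgene, and for Hif1a and Epas1. Of each pathway list the 2 highest and the 2 lowest called genes are named, with Vhl, Arnt, Vegfa, Slc2a2 and Ldha; 1 further gene of that rule is not reported here. Promoters were considered for the 3 highest and 3 lowest members called in both the averaged and the transgenic comparison.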

Additional observations from a re-analysis of the deposited data

How the results depend on the processing

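No member changed direction in any alternative where it had been called. The averaged strain calls of Epas1, P4ha2 and Vldlr held in 22 of 22 alternatives and that of Stc2 in 20 of 20. The number of members called, 14 averaged, 6 in transgenic and 13 in non-transgenic islets, 2 for insHEL in B10, 3 in NOD and 0 for the interaction, moved most with the acinar covariate and with depth. The acinar score as a covariate called 7 averaged (6 of the 14 and 1 other), 7 non-transgenic (5 of the 13 and 2 others), 0 for insHEL in B10 and 1 for the interaction. That score is high in the 3 B10 libraries and in B10_insHEL replicate 2, and the cause was not tested. Thinning to the shallowest library, which leaves fewer counts and genes, called 3, 0, 2, 0 and 0 in the first 5 comparisons. Of the 2, Epas1 was among the 13 and the other was not. For insHEL in B10, 1 member was called with DESeq2 size factors, with upper-quartile scaling and with at least 50 counts in 3 libraries, and 0 with islet number as a covariate. Fits on the compared groups alone called 2 in transgenic islets and 0 for insHEL in B10, but 15 in non-transgenic islets, and the cause was not tested. DESeq2's Wald test and the fit without a filter each called 1 for the interaction. Leaving out both B10_insHEL replicate 2 and NOD_insHEL replicate 3, chosen after seeing the data, gave 3 in transgenic islets, 1 for insHEL in B10 and 5 in NOD. Leaving out 1 library at a time gave 12 to 15, 2 to 6, 10 to 14, 0 to 2, 0 to 4 and 0 to 1.

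Over all genes, the acinar covariate called 2159 averaged, 1204 non-transgenic and 224 for insHEL in B10, and 46 for the interaction, and thinning called 1073, 261, 657, 140, 27 and 1 in the 6 comparisons. Fits on the compared groups alone called 1197 in transgenic islets, 646 for insHEL in B10 and 5323 in non-transgenic islets, and islet number as a covariate 2688 in non-transgenic islets, 578 for insHEL in B10 and 4 for the interaction. For the interaction DESeq2 called 83, the fit without a filter 161 and the fit without both libraries 283. The latter called 1754 for insHEL in B10 and 1964 in NOD.

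Replicate numbers do not pair the samples: same-numbered libraries had correlations of -0.0950 to 0.0803 over 18 pairs, and a fit with the replicate number as a block called 15, 6, 14, 2, 3 and 0 members. Depth limits Stc2, Egln3, Hk2, Adm, Ak4 and Car9 most.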
